A study of Homo sapiens with 4 samples.

Results

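The genes described here are the integrin alpha and beta chains and the laminin chains. They were chosen by symbol among the protein-coding genes of an RNA-seq table, as ITGA, ITGB and LAMA, LAMB or LAMC followed by the number or letter of the chain, by a rule that reads no expression value. There were 38 of them among the 58735 genes of the table, namely 18 integrin alpha chains, 8 integrin beta chains and 12 laminin chains. RNA-seq was performed on adherent cells and on spheroids of HCT116 and LOVO, which are established human colorectal cancer cell lines, with 1 library for each of the 4 conditions. The adherent cells grew in medium with serum and received no drug. The spheroids formed on low-attachment dishes in serum-free medium with growth factors. Per the labels they received an agent at 1 mg/ml, for which the results text of the study names oxaliplatin and gives micrograms in place of milligrams. Growth form, medium and drug therefore changed together and cannot be told apart, and the labels name no genetic change in either line. Within a line each condition had 1 library, so the differences given for a line could not be checked against replicates and carry no p-value.

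The values are FPKM, the fragments counted on a gene divided by its length in kilobases and by the library size in units of 1000000. For the chains this length joins the exons of all annotated transcripts. Levels of different genes can therefore be set side by side only roughly, since the transcripts in use may be shorter. Reads on genes numbered from 15483569 to 20429147 per library. Differences are given in either of these forms. The log2 difference is taken on log2(FPKM + 1), which shrinks the change of weakly expressed genes, and a gene was counted as higher or lower when it passed 1 on that scale. The log2 ratio is taken on FPKM itself, with a 95% exact (Clopper-Pearson) interval from the reads that covers counting error only. Changes were counted over the 14429 genes whose FPKM averaged at least 1 across the 4 libraries. Of the 38 chains, 24 reached this mean, and 8 of these 24 had an FPKM under 1 in at least 1 library.

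The labels were checked against cell type markers. EPCAM, an adhesion molecule of epithelial cells, had 85.6 and 79.3 FPKM in adherent and spheroid HCT116 cells but 0.930 and 1.50 in adherent and spheroid LOVO cells. CDH1, the E-cadherin gene, had 31.1 FPKM in each HCT116 library and 0.117 and 0.00805 in the LOVO libraries. CDX2, a transcription factor of intestinal epithelium, was at 0 reads in both LOVO libraries, against 3.84 and 3.12 FPKM in HCT116. The 8 epithelial markers summed to 1754 and 1288 FPKM in HCT116 and to 327 and 187 FPKM in LOVO, where KRT8 and KRT18 made up most of the sum. The 6 fibroblast markers summed to 5.60 and 16.1 FPKM in HCT116 and to 54.0 and 72.8 FPKM in LOVO. In LOVO most of that sum was LUM, which encodes the matrix proteoglycan lumican, at 31.4 and 50.4 FPKM. DCN had 10.4 and 9.97 FPKM in LOVO and 0 reads in HCT116, and COL3A1 and PDGFRB were also higher in LOVO in both growth forms. COL1A1 had 5.51 and 15.5 FPKM in HCT116 and 9.89 and 6.10 in LOVO, and COL1A2 was at or near 0 in all 4 libraries. The 5 endothelial markers summed to at most 1.19 FPKM in 3 libraries and to 7.94 FPKM in LOVO spheroids, where PECAM1 made up 6.35. CDH5 had 1.05 and 1.42 FPKM in LOVO and at most 0.0294 in HCT116. KDR was at 0 reads in both LOVO libraries, and VWF and TEK were at or below 0.332 FPKM in every library. The libraries labelled LOVO thus lacked defining epithelial markers, the part of this in the results below was not tested, and the values of HCT116 are therefore also given alone.

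Integrins are receptors made of an alpha and a beta chain that span the cell membrane, bind the extracellular matrix outside the cell and link it to the actin or keratin cytoskeleton inside. Laminins are trimers of an alpha, a beta and a gamma chain, which form the sheet of the basement membrane under every epithelium. In the gut epithelium the integrin of the alpha6 and beta4 chains holds cells to a laminin that contains the alpha3 and beta3 chains at hemidesmosomes, whereas beta1 integrins bind collagens, laminins and fibronectin. In bulk RNA, fewer cells of a type and less RNA per cell cannot be told apart.

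In HCT116 spheroids, 2 chains were higher than in adherent cells and 0 were lower. The 2 chains were ITGA7 and ITGB8, against a background of 2.19% of all genes compared that were higher and 3.33% that were lower. In LOVO spheroids, 8 chains were higher than in adherent cells, namely ITGA1, ITGA2, ITGA3, ITGA5, ITGA10, ITGB4, ITGB8 and LAMB3, against a background of 8.57% of all genes. LAMA1 alone was lower, against a background of 7.85%. The median log2 difference over the 24 chains was 0.30 in HCT116 and 0.54 in LOVO, and over all genes compared it was -0.03 and -0.06. In each line 18 of the 24 chains had a difference above 0, as had 45.8% of all genes in HCT116 and 45.5% in LOVO. The 8 chains that reached the mean FPKM with a value under 1 somewhere had room to differ, so the counts were repeated over the 16 chains with at least 1 FPKM in every library. Of these 16, 0 were past 1 in HCT116, where 1.16% of the genes that met the same condition were higher and 3.52% lower. In LOVO 5 of the 16 were higher in spheroids (ITGA2, ITGA3, ITGA5, ITGB4 and LAMB3) and 0 were lower, against 5.55% and 8.17% of such genes. With the genes chosen by the mean of the HCT116 libraries only, 2 of 21 chains were higher in HCT116 spheroids and 0 were lower, against 2.61% and 3.53% of 14037 genes. At the threshold of 2 that the study's methods name, 0 of 24 chains were past it in HCT116, against 0.201% of genes higher and 0.506% lower. In LOVO 4 chains were higher by more than 2 (ITGA2, ITGA5, ITGA10 and ITGB8) and 0 were lower, against 1.81% and 0.943% of genes. On TPM in place of FPKM, 3 chains were higher in HCT116 spheroids and 11 in LOVO spheroids, against 4.25% and 15.7% of genes. ITGA10 in HCT116 and ITGA7, ITGA2B and LAMC3 in LOVO then passed 1. With 0.1 added to FPKM in place of 1, the counts were also 3 and 11, against 5.29% and 14.4% of genes. The log2 difference of ITGA10 in HCT116 was 0.69 at first, 1.25 on TPM and 1.66 with 0.1 added. These counts thus also depend on how much the added 1 weighs on low values.

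When both lines were fitted together with limma on log2(FPKM + 1), with the cell line as a block and 1 residual degree of freedom, 0 of the 24 chains had an adjusted p under 0.05, as had 0 of the 14429 genes (0.00%). The smallest adjusted p, 0.462, was shared by ITGB8, ITGA7, ITGB4, ITGA10 and LAMC3. These 5 of the 24 chains (20.8%) had an unadjusted limma p under 0.05, as had 10.7% of all genes. In each line their spheroid value was the higher, by 0.75 (LAMC3) to 1.81 (ITGA10) on average over the lines. The fit gives a small p where the lines change alike, so this shared direction follows largely from how the 5 were picked. Of the 5, only ITGB4 and LAMC3 had at least 1 FPKM in every library, so ITGA7, ITGA10 and ITGB8 had room to differ. ITGA10 reached the mean of 1 FPKM only through LOVO spheroids, at 6.67 FPKM.

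**Figure D1:**
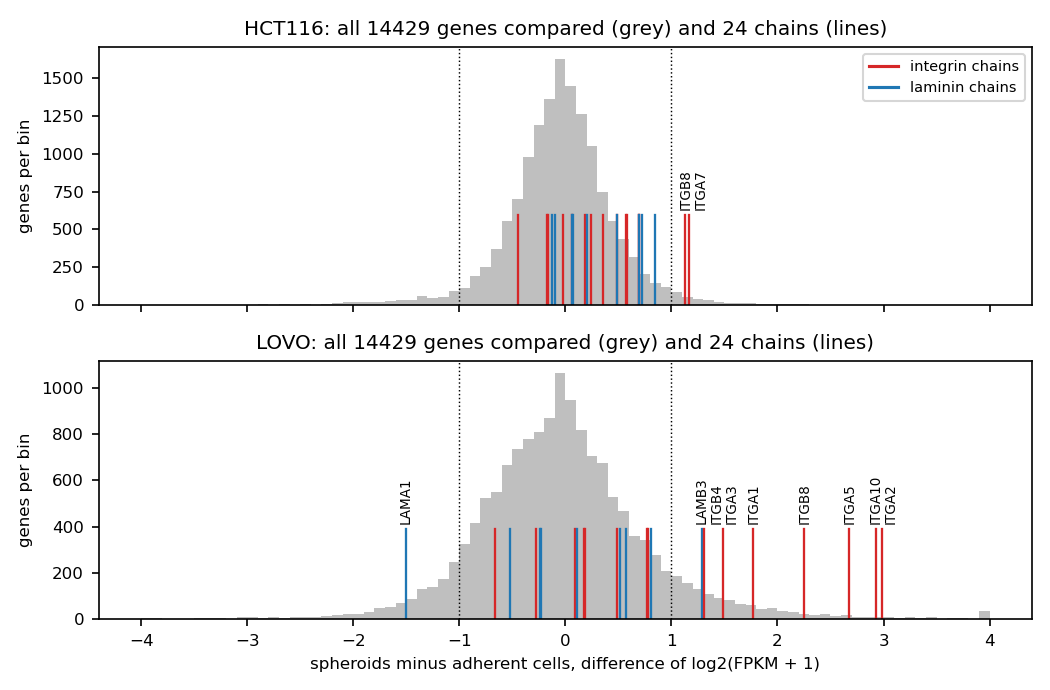
Difference in log2(FPKM + 1) between spheroids and adherent cells (x axis) for all 14429 genes compared (grey, genes per bin; values past the axis are counted in the end bins) and for the 24 chains (coloured lines), with HCT116 above and LOVO below. The dotted lines mark a difference of 1 in either direction; 2 chains lie past it in HCT116, and 8 higher and 1 lower in LOVO, from 1 library per condition.

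Chains that lay near the threshold were as follows. In HCT116 the nearest chains outside were LAMB2 at 0.85 and LAMA3 at 0.72, and those inside were ITGB8 at 1.13 and ITGA7 at 1.17 on the log2(FPKM + 1) scale. In LOVO, LAMC3 at 0.81 and ITGA2B at 0.78 were the nearest outside, and LAMB3 at 1.29 and ITGB4 at 1.31 the nearest inside. The counts in both lines therefore had no chain within 0.1 of the threshold.

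The collagen-binding alpha chains, which pair with the beta1 chain, summed to 34.0, 44.5, 10.6 and 64.3 FPKM in adherent HCT116, HCT116 spheroids, adherent LOVO and LOVO spheroids. The sum was 6.08-fold higher in LOVO spheroids than in adherent LOVO cells and 1.31-fold higher in HCT116 spheroids. In GRCh38, ITGA1 (52787896 to 52959210) and ITGA2 (52989326 to 53094779) are neighbours on chromosome 5, plus strand. Their upstream sequences are shown because both chains were higher in LOVO spheroids, and that of LAMB3 because it holds a match to the AP-1 motif. Each is the part of the RefSeq promoter window (GRCh38.p14) that lies outside the exons annotated for its gene, and is written 5′ to 3′ on the strand of the gene, with matches to the GC box (GGGCGG) or AP-1 motif (TGANTCA) in capitals.
ITGA1, chr5:52787666-52787895, plus strand: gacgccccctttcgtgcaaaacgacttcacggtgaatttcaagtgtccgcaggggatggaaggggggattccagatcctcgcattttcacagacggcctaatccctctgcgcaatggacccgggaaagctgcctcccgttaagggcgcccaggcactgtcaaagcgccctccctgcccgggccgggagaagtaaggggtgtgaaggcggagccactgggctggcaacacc
ITGA2, chr5:52989102-52989325, plus strand: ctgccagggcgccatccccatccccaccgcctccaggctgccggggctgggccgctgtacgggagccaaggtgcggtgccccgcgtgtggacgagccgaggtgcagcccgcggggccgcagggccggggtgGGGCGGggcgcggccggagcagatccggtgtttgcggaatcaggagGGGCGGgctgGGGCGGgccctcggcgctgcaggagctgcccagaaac
LAMB3, chr1:209651395-209651624, minus strand: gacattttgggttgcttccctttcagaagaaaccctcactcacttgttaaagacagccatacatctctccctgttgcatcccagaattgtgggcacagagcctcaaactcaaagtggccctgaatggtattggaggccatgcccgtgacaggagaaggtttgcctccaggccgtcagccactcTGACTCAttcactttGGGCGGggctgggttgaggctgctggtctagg
The ITGA1 stretch held no match to either motif, and the ITGA2 stretch held GC boxes and no AP-1 match. The LAMB3 stretch held 1 AP-1 match followed by 1 GC box, and it lies within the span of the gene, between the starts of its longer and shorter transcripts. The other RefSeq windows of LAMB3, chr1:209652330-209652579 and chr1:209652426-209652675, held 0 AP-1 matches. RefSeq windows were found for 26 of the 38 chains, and their 250 upstream bases were searched on both strands for the letters of 3 motifs. The 26 chains had 33 windows among the 35116 of the table. The GC box was present in 17 of the 33 windows and in 42.6% of all windows. The TEAD motif (GGAATG) was present in 4 of the 33 (of ITGA5, ITGA10, ITGB1 and LAMA2) and in 11.9% of all windows. The AP-1 motif was present in 2 of the 33 (of LAMA3 and LAMB3) and in 6.57% of all windows. A match is a description of the letters, not of binding.

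ITGA2, the chain of the main collagen receptor of epithelial cells, had 33.4 and 42.9 FPKM in adherent and spheroid HCT116 cells, and 2.67 and 28.1 in adherent and spheroid LOVO cells. Adherent LOVO cells were the low library, with the other 3 between 28.1 and 42.9. In LOVO the spheroids were 10.5-fold higher, a log2 ratio of 3.39 (3.24 to 3.55), which was the widest gap among chains with at least 1 FPKM in every library. In HCT116 the log2 ratio was 0.36 (0.31 to 0.42).

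ITGA1, another collagen-binding chain, had 0.322 and 0.503 FPKM in adherent and spheroid HCT116 cells, and 7.88 and 29.3 in adherent and spheroid LOVO cells. The LOVO libraries were the high ones, and their spheroids were 3.72-fold above their adherent cells (log2 ratio 1.90, interval 1.84 to 1.96). Of the exonic bases of ITGA1, 6.39% are shared with other annotated genes, among them PELO, which lies within it, and reads there cannot be assigned to either gene. ITGA10, a chain best known from cartilage, had 0.256 and 1.03 FPKM in HCT116 from 33 and 109 reads, and 0.00882 and 6.67 FPKM in LOVO from 1 and 848 reads. LOVO spheroids were high and the other 3 libraries near or below 1 FPKM. The log2 ratio in LOVO was 9.56 with a counting interval from 7.08 to 14.9, and in HCT116 spheroids were 4.01-fold higher, with an interval of the log2 ratio from 1.43 to 2.61. ITGA11, the last chain of this kind, had at most 0.146 FPKM, in LOVO spheroids.

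**Figure D2:**
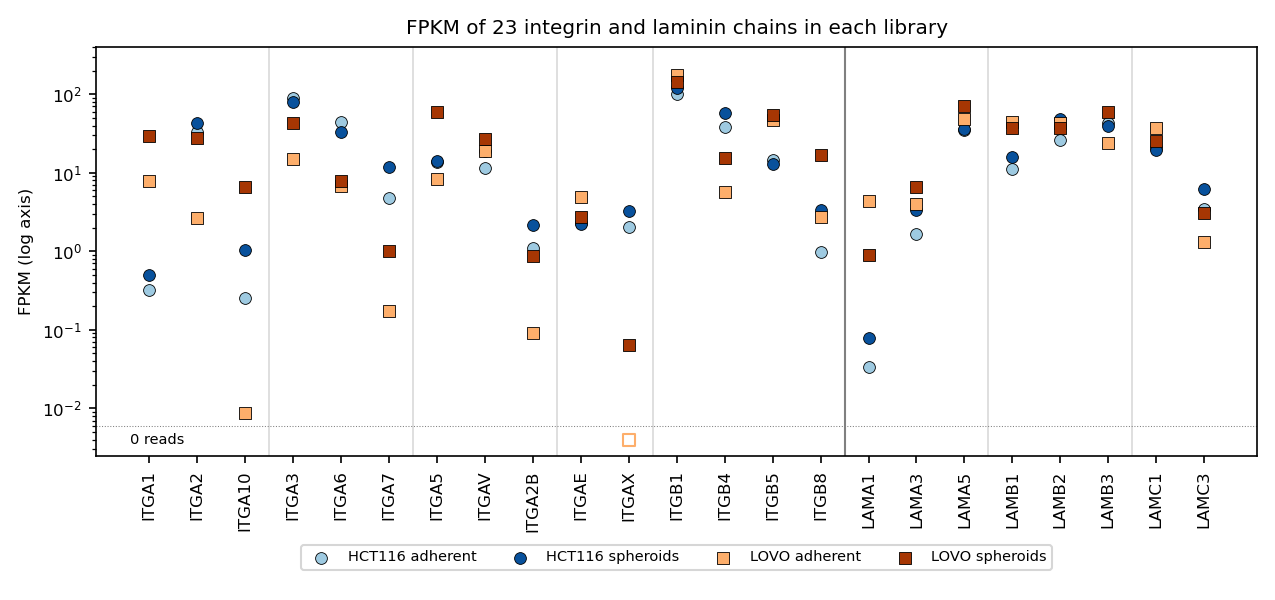
FPKM of 23 of the 24 chains with a mean of at least 1 (log axis) in each of the 4 libraries, grouped by role from collagen-binding alpha chains at the left to laminin gamma chains at the right. Each point is 1 library, so no error is shown; the open square marks ITGAX in adherent LOVO cells, which had 0 reads, and ITGB1 lies at the top with 101 to 175 FPKM.

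The laminin-binding alpha chains ITGA3, ITGA6 and ITGA7 summed to 138 and 124 FPKM in adherent and spheroid HCT116 cells and to 21.8 and 52.4 FPKM in adherent and spheroid LOVO cells. They made up 67.9% and 58.8% of the alpha chain FPKM in HCT116, and 33.9% and 25.4% in LOVO. ITGA3 was the most abundant alpha chain in HCT116. ITGA3, which pairs with the beta1 chain, had 88.7, 79.1, 14.9 and 43.5 FPKM in adherent HCT116, HCT116 spheroids, adherent LOVO and LOVO spheroids. Spheroids were higher in LOVO (2.92-fold, log2 ratio 1.55, interval 1.48 to 1.61) and slightly lower in HCT116 (0.891 times, log2 ratio -0.17, interval -0.20 to -0.13). When FPKM was rescaled to the totals of reads on genes, the log2 ratio in HCT116 was -0.04 (-0.08 to -0.01).

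ITGA6, the partner of the beta4 chain at hemidesmosomes, had 44.9 and 32.7 FPKM in adherent and spheroid HCT116 cells and 6.76 and 7.84 FPKM in adherent and spheroid LOVO cells. Both HCT116 libraries were above both LOVO libraries. ITGB4, the beta chain that binds keratin filaments through plectin, had 38.5 and 57.8 FPKM in HCT116 and 5.65 and 15.4 in LOVO, so spheroids were 1.50-fold and 2.73-fold higher. The FPKM of ITGA6 per FPKM of ITGB4 was 1.17 and 1.20 in adherent HCT116 and LOVO cells and 0.565 and 0.508 in their spheroids. In both lines the FPKM of the beta chain thus exceeded that of the alpha chain in spheroids and not in adherent cells. ITGA7, a laminin receptor chain of muscle, had 4.77 and 11.9 FPKM in HCT116 and 0.175 and 0.998 in LOVO, the last from 20 and 128 reads. It was 2.50-fold higher in HCT116 spheroids (log2 ratio 1.32, interval 1.19 to 1.47), and in LOVO the log2 ratio was 2.51 (1.83 to 3.27) although its log2(FPKM + 1) difference stayed at 0.77.

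The RGD-binding alpha chains, which recognise the arginine-glycine-aspartate motif of fibronectin and vitronectin, summed to 26.3 and 35.7 FPKM in HCT116 and to 27.2 and 86.3 FPKM in LOVO. ITGA5, the fibronectin receptor chain that pairs with beta1, had 13.6 and 14.2 FPKM in adherent and spheroid HCT116 cells, and 8.32 and 58.6 in adherent and spheroid LOVO cells. Only the LOVO spheroids stood out, 7.05-fold above adherent LOVO cells with a log2 ratio of 2.82 (2.73 to 2.91), and 4.12-fold above HCT116 spheroids. In HCT116 the log2 ratio of 0.07 had an interval from -0.03 to 0.16, so no difference was detectable at this depth.

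ITGAV, the alpha chain shared by the beta5, beta6 and beta8 integrins, had 11.5, 19.2, 18.8 and 26.8 FPKM in adherent HCT116, HCT116 spheroids, adherent LOVO and LOVO spheroids. It was 1.67-fold higher in HCT116 spheroids and 1.43-fold higher in LOVO spheroids, below the threshold in both. ITGA2B, the alpha chain of the platelet fibrinogen receptor, had 1.11 and 2.17 FPKM in HCT116 and 0.0904 and 0.877 in LOVO, the last from 9 and 98 reads. The platelet genes GP9, PF4 and PPBP had 0 reads in all 4 libraries, and GP1BA, the last of the 4 platelet markers, had 1.61 to 3.41 FPKM. ITGA8, the remaining chain of this kind, had at most 9 reads in a library.

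ITGB1, the beta chain that pairs with the largest number of alpha chains, was the most abundant of the 38 chains in every library, with 101, 120, 175 and 144 FPKM in adherent HCT116, HCT116 spheroids, adherent LOVO and LOVO spheroids. It made up 61.5% to 75.5% of the beta chain FPKM, with log2 ratios of spheroids to adherent cells of 0.25 (0.21 to 0.28) in HCT116 and -0.28 (-0.31 to -0.25) in LOVO. The log2 ratio in LOVO was -0.07 on TPM and -0.06 when rescaled to the totals of reads on genes. A processed pseudogene holds 8.87% of the stretches of 50 bases of ITGB1, so part of its reads may be split with that copy. ITGB5, a beta chain of the vitronectin receptor, had 14.6 and 12.8 FPKM in HCT116 and 47.6 and 53.9 in LOVO. The lines rather than the growth form separated the ITGB5 libraries, with LOVO 3.25-fold above HCT116 in adherent cells and 4.20-fold in spheroids.

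ITGB8, whose integrin with the alphaV chain binds latent TGF-beta, was higher in the spheroids of both lines, with 0.971 and 3.32 FPKM in adherent and spheroid HCT116 cells and 2.70 and 16.6 in adherent and spheroid LOVO cells. The fold was 3.42 in HCT116 (log2 ratio 1.77, interval 1.58 to 1.97) and 6.16 in LOVO (log2 ratio 2.62, interval 2.51 to 2.74). ITGB8 was the one chain past 1 on the log2(FPKM + 1) scale in both lines, with under 1 FPKM in adherent HCT116 cells. The share of all genes past 1 in both lines was not counted, so this overlap has no background. ITGB3, the partner of ITGA2B in platelets, and ITGB6, an epithelial partner of ITGAV, did not reach a mean of 1 FPKM, and neither exceeded 1 FPKM in a library. ITGB3 had 5 and 31 reads in adherent and spheroid HCT116 cells and 3 and 88 in adherent and spheroid LOVO cells, and 51.6% of its exonic bases are shared with another annotated gene on the same strand, so its reads may belong to either. ITGB6 had 5 and 12 reads in HCT116 and 2 and 59 reads in LOVO, and 20.6% of its exonic bases are shared with another transcript.

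The leukocyte alpha chains were low, at 4.85 FPKM or less, as were the chains of the beta2 and beta7 integrins, which leukocytes use. ITGAE, whose integrin binds E-cadherin, had 2.28, 2.22, 4.85 and 2.70 FPKM in adherent HCT116, HCT116 spheroids, adherent LOVO and LOVO spheroids, and 7.59% of its exonic bases are shared with HASPIN and another gene. Adherent LOVO cells were highest, and in LOVO the log2 ratio of spheroids was -0.84 (-1.04 to -0.65). ITGAX, an alpha chain of myeloid cells, had 2.05 and 3.26 FPKM in HCT116, and in LOVO 0 reads in adherent cells and 9 reads in spheroids. Of the 7 leukocyte markers, 0 reached a mean of 1 FPKM, and their sum was 1.18, 1.55, 0.148 and 1.95 FPKM in adherent HCT116, HCT116 spheroids, adherent LOVO and LOVO spheroids. PTPRC, which marks all leukocytes, was at or below 0.0107 FPKM in every library. CD14, a receptor of myeloid cells, made up most of the sum, with 0.832, 0.663, 0.148 and 1.79 FPKM in the same order, from 5 and 68 reads in LOVO (log2 ratio 3.60, interval 2.31 to 5.27).

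Of the 38 chains, 14 did not reach the mean of 1 FPKM. They were ITGA4, ITGA8, ITGA9, ITGA11, ITGAD, ITGAL, ITGAM, ITGB2, ITGB3, ITGB6, ITGB7, LAMA2, LAMA4 and LAMB4. Their highest FPKM in any library was 1.30, for ITGB2, the shared beta chain of leukocyte integrins, in LOVO spheroids, and their reads summed over the libraries ranged from 10 to 291. ITGB2 had 0.108 and 0.131 FPKM in HCT116 and 0.591 and 1.30 in LOVO, and the part of the leukocyte markers in this was not tested. ITGA9, which binds tenascin C and osteopontin, had 82 and 81 reads in HCT116 and 0 and 3 in LOVO. In adherent LOVO cells 11 of the 38 chains had 3 reads or fewer, against 2, 2 and 4 in adherent HCT116, HCT116 spheroids and LOVO spheroids. The share of all genes with 3 reads or fewer was not counted, so this cannot be called particular to the chains. A count of 3 reads in a gene of 1000 bases corresponds to 0.147 to 0.179 FPKM, depending on the library.

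**Figure D3:**
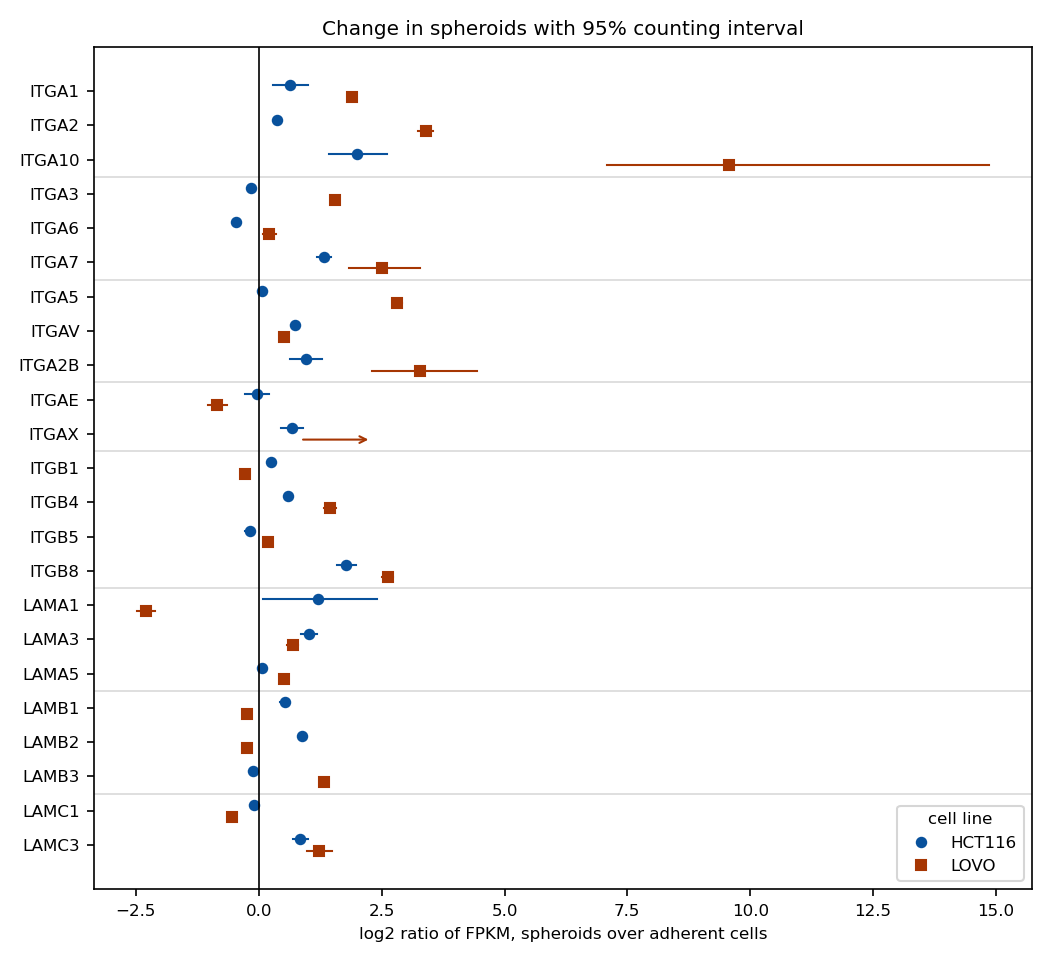
Log2 ratio of FPKM, spheroids over adherent cells, for 23 of the 24 chains in HCT116 and LOVO, with 95% exact counting intervals as bars. The arrow of ITGAX in LOVO marks a lower limit only, since adherent LOVO cells had 0 reads; ITGA10 in LOVO has the widest interval, from 7.08 to 14.9.

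Among the laminin chains, LAMA5, the alpha chain of the common laminins of adult epithelia, had 34.8 and 36.5 FPKM in adherent and spheroid HCT116 cells and 49.1 and 70.4 in adherent and spheroid LOVO cells. LOVO spheroids were the highest library, 1.43-fold above adherent LOVO cells. LAMA3, the alpha chain of the laminin of hemidesmosomes, had 1.67 and 3.40 FPKM in HCT116 and 4.05 and 6.53 in LOVO, with folds of 2.04 and 1.61. LAMA1, the alpha chain of embryonic laminin, had 0.0340 and 0.0788 FPKM in HCT116 from 11 and 21 reads, and 4.36 and 0.889 FPKM in adherent and spheroid LOVO cells. LAMA1 stood high only in adherent LOVO cells, and in LOVO its spheroids were 0.204 times the adherent level (log2 ratio -2.29, interval -2.48 to -2.11). Of the exonic bases of LAMA1, 11.1% are shared with antisense genes, whose reads cannot be told apart from its own without strand.

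LAMB3, the beta chain of the same hemidesmosomal laminin as LAMA3, had 43.5, 39.9, 23.8 and 59.5 FPKM in adherent HCT116, HCT116 spheroids, adherent LOVO and LOVO spheroids. LOVO spheroids were 2.50-fold above adherent LOVO cells (log2 ratio 1.32, interval 1.25 to 1.40), while HCT116 spheroids were 0.917 times adherent cells, with a log2 ratio whose interval included 0 (-0.07 to 0.06) when rescaled to the totals of reads on genes. The FPKM of LAMA3 per FPKM of LAMB3 ranged from 0.0385 to 0.170 over the 4 libraries, on lengths that join the exons of all annotated transcripts.

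LAMB1, a beta chain found in many basement membranes, had 11.1 and 15.9 FPKM in HCT116 and 43.8 and 37.0 in LOVO, with folds of 1.44 and 0.845. LAMB2, another such beta chain, had 26.4 and 48.4 FPKM in HCT116 and 43.5 and 37.0 in LOVO. It was 1.83-fold higher in HCT116 spheroids and 0.851 times the adherent level in LOVO spheroids, below the threshold in both. In LOVO the log2 ratios of LAMB1 and LAMB2 were -0.24 and -0.23, against -0.04 and -0.03 on TPM and -0.03 and -0.02 when rescaled to the totals of reads on genes, where the intervals included 0. LAMC1, the gamma chain of most laminins, had 20.7, 19.4, 37.3 and 25.7 FPKM in adherent HCT116, HCT116 spheroids, adherent LOVO and LOVO spheroids, with a log2 ratio of -0.54 (-0.59 to -0.48) in LOVO. LAMC3, a less common gamma chain, had 3.49 and 6.27 FPKM in HCT116 and 1.30 and 3.04 in LOVO, higher in the spheroids of both lines by 1.80-fold and 2.34-fold.

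Summed over each class, the alpha chain FPKM was 204 in adherent HCT116, 210 in HCT116 spheroids, 64.5 in adherent LOVO and 206 in LOVO spheroids. Adherent LOVO cells were low, at a level that spheroids exceeded 3.19-fold, and the other 3 libraries lay between 204 and 210. The beta chain sum was 155, 195, 231 and 233 FPKM in the same order, and the laminin sum 159, 189, 207 and 240 FPKM. Spheroids were 1.25-fold and 1.01-fold higher in the beta chain sum and 1.19-fold and 1.16-fold higher in the laminin sum, in HCT116 and LOVO. The most abundant alpha chain was ITGA3 in both HCT116 libraries (43.5% and 37.6% of the sum), ITGAV in adherent LOVO (29.1%) and ITGA5 in LOVO spheroids (28.5%). Among laminin chains it was LAMB3 in adherent HCT116 (27.4%), LAMB2 in HCT116 spheroids (25.5%) and LAMA5 in LOVO (23.6% and 29.3%).

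**Figure D4:**
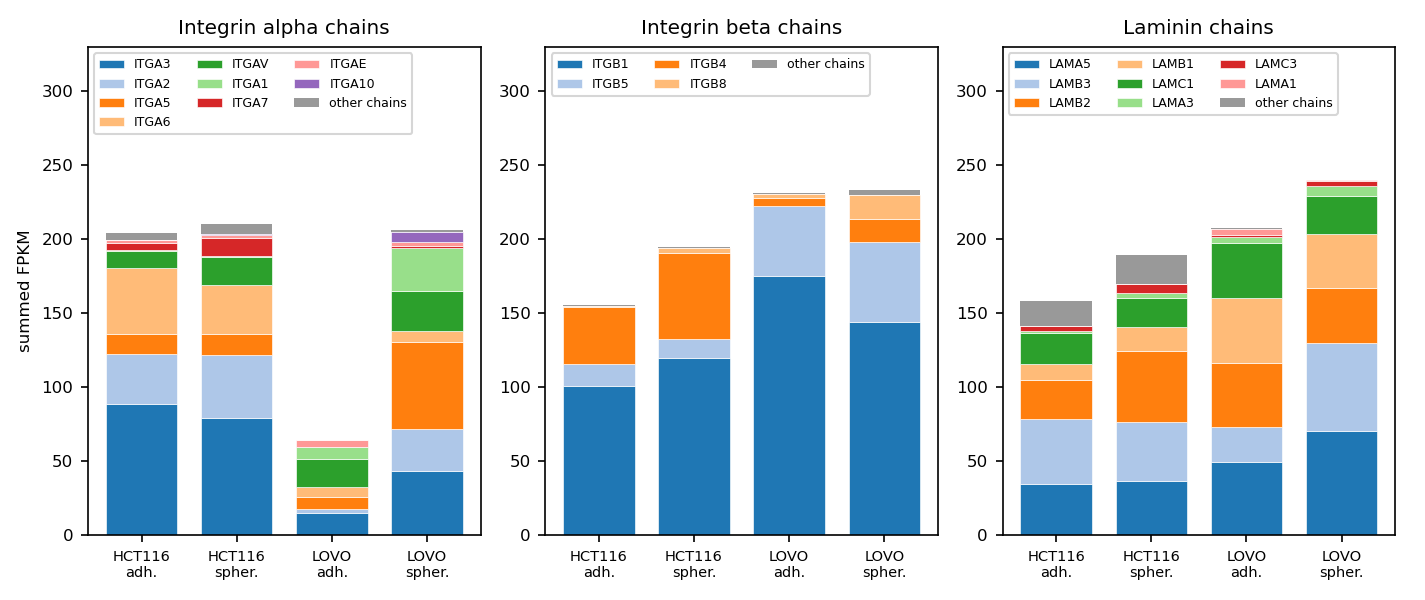
Summed FPKM of integrin alpha, integrin beta and laminin chains in each library, stacked by chain, with the axis from 0. The alpha chain bar of adherent LOVO (64.5 FPKM) is the shortest of its class, while the other 3 alpha chain bars lie between 204 and 210.

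The lines were then compared within each growth form. These comparisons share libraries with those of spheroids and adherent cells. In adherent cells 4 chains were higher in LOVO (ITGA1, ITGB5, LAMA1 and LAMB1; background 17.4%) and 7 were lower (among them ITGA2, ITGA3, ITGA6, ITGA7, ITGAX and ITGB4; background 16.4%). In spheroids 6 were higher in LOVO (ITGA1, ITGA5, ITGA10, ITGB5, ITGB8 and LAMB1; background 17.7%) and 5 were lower (among them ITGA6, ITGA7, ITGAX and ITGB4; background 15.0%). At the threshold of 2, 2 chains were higher and 6 lower in adherent LOVO (background 5.26% and 5.59%), and in spheroids LOVO had 2 higher and 3 lower (background 5.68% and 4.71%). Over the 16 chains with at least 1 FPKM in every library, 2 were higher and 4 lower in adherent LOVO (background 14.9% and 9.66%), and in spheroids LOVO had 3 higher and 2 lower (background 13.9% and 9.05%). ITGA1 was 24.4-fold and 58.3-fold higher in LOVO. ITGA2 and ITGA3 were past the threshold in adherent cells only, and in spheroids their log2(FPKM + 1) differences were -0.59 and -0.85. The median size of the difference between the lines over the 24 chains was 0.96 in adherent cells and 0.89 in spheroids on the log2(FPKM + 1) scale, against 0.67 and 0.65 over all genes compared. The lines were closer in spheroids for 15 of the 24 chains (62.5%), as for 51.8% of all genes. They were closer for 8 of the 15 integrins (53.3%), whose median size of difference was 1.61 in adherent cells and 1.92 in spheroids, and for 7 of the 9 laminins (77.8%), with 0.92 and 0.81.

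**Figure D5:**
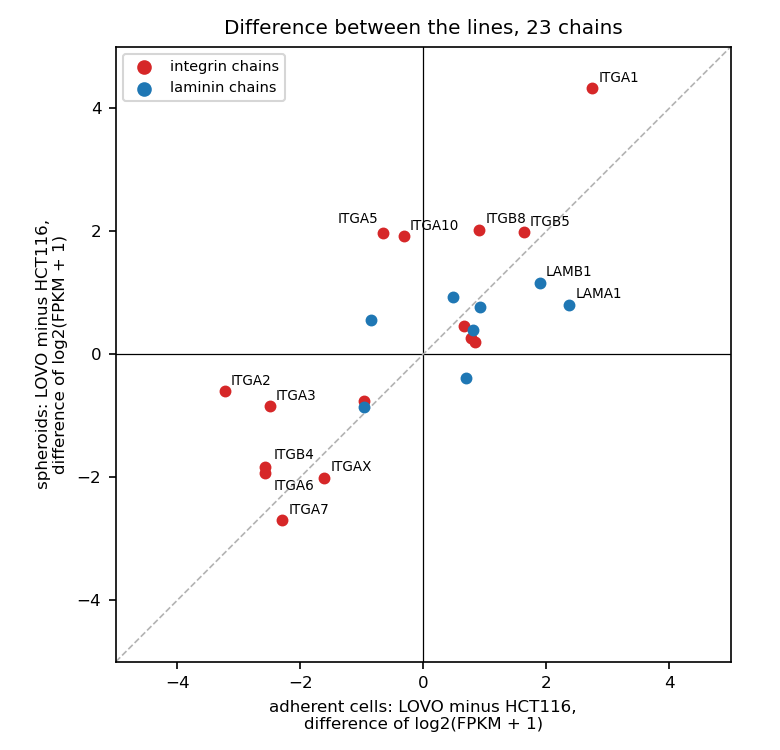
Difference between LOVO and HCT116 in log2(FPKM + 1) for 23 of the 24 chains, in adherent cells (x axis) and in spheroids (y axis), with integrins in red and laminins in blue. The dashed line marks equal differences; ITGA1 (2.75 and 4.34) lies furthest up and ITGA7 (-2.29 and -2.69) furthest down, and ITGA5 lies below 0 in adherent cells and above 0 in spheroids.

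The mRNAs of proteins that work with these chains were read from lists of partners, and their counts stand beside the shares of all genes given above, 2.19% higher and 3.33% lower in HCT116 spheroids and 8.57% and 7.85% in LOVO spheroids. Of 31 focal adhesion and integrin tail proteins, which link integrins to actin, 27 were compared, and 0 were past 1 in HCT116. In LOVO 1 was higher in spheroids, TNS4, which encodes a tensin (6.68 to 20.5 FPKM), and 4 were lower, among them PARVA, an actin-binding partner of integrin-linked kinase (8.51 to 0.735 FPKM), and FERMT1, an epithelial kindlin that activates integrins (8.72 to 2.13 FPKM). In HCT116 FERMT1 had 3.95 and 8.74 FPKM in adherent and spheroid cells, a log2(FPKM + 1) difference of 0.98, just under the threshold. The other 2 lower in LOVO were ITGB1BP1, which binds the tail of beta1 (16.5 to 6.72 FPKM), and KANK1 (11.1 to 4.99 FPKM). The median log2 difference over this list was -0.17 in HCT116 and -0.35 in LOVO, below that of the chains and of all genes in both lines. Of 4 hemidesmosome partners 3 were compared, namely PLEC, DST and CD151, and 0 were past 1 in either line. The remaining partner, COL17A1, did not reach the mean of 1 FPKM but was higher in the spheroids of both lines. It had 0.306 and 1.57 FPKM in adherent and spheroid HCT116 cells, a log2 ratio of 2.36 (1.88 to 2.87). In LOVO it had 0.339 and 1.13 FPKM, a log2 ratio of 1.73 (1.24 to 2.25). Its log2(FPKM + 1) differences were 0.98 and 0.67.

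Among 5 membrane proteins that associate with integrins, SLC3A2, which binds beta1 and carries amino acid transporters, was lower in both spheroid libraries, with 91.5 and 24.6 FPKM in HCT116 and 461 and 58.2 in LOVO. None of the other 4 was past 1. Of 17 basement membrane partners and other laminin receptors, 14 were compared, with 2 higher and 0 lower in HCT116 (14.3% and 0%), and 3 higher and 2 lower in LOVO (21.4% and 14.3%). COL7A1, the collagen of anchoring fibrils under hemidesmosomes, was higher in the spheroids of both lines, with 1.05 and 3.53 FPKM in HCT116 and 14.02 and 58.9 in LOVO. BCAM, a receptor of laminin alpha5, was the other one in HCT116 (15.9 and 34.6 FPKM), and in LOVO it had 25.5 and 17.4 FPKM. In LOVO the network collagen COL4A6 (0.312 and 3.66 FPKM) and the heparan sulfate proteoglycan SDC4 (14.7 and 42.3 FPKM) were also higher, and COL4A1 (7.43 and 2.56 FPKM) and COL4A4 (9.99 and 3.75 FPKM) were lower in spheroids. SDC4 had 172 and 87.2 FPKM in HCT116, a log2(FPKM + 1) difference of -0.97.

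Of 17 other integrin ligands, 14 were compared, with 0 higher and 3 lower in HCT116 (0% and 21.4%), and 4 higher and 4 lower in LOVO (28.6% and 28.6%). CTGF, a matrix protein that binds integrins, was lower in both spheroid libraries, with 26.6 and 5.55 FPKM in HCT116 and 5.98 and 0.255 in LOVO. CYR61, a related protein, was lower in HCT116 spheroids only (43.4 and 9.12 FPKM, against 109 and 117 in LOVO). TNC, the ligand tenascin C, had 0.0560 and 0.0741 FPKM in HCT116 and 0.0752 and 5.92 in LOVO, and ICAM1, a ligand of beta2 integrins, had 1.07 and 2.09 FPKM in HCT116 and 2.03 and 14.2 in LOVO. VTN, the vitronectin that alphaV integrins bind, had 0.0809 and 0.221 FPKM in HCT116 and 40.2 and 4.94 in LOVO. THBS1, the matrix protein thrombospondin, was lower in both spheroid libraries, with 10.2 and 4.41 FPKM in HCT116 and 15.7 and 3.45 in LOVO.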

How the data were processed

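RNA-seq was performed by the authors on 4 libraries, 1 each of adherent HCT116, HCT116 spheroids, adherent LOVO and LOVO spheroids, and groups were taken from the sample labels. The authors deposited FPKM values for 58735 genes. The aligner and counter are not given in the sources used here. The labels list the mouse builds GRCm38 and mm10, whereas all 58735 gene identifiers are in human GENCODE 29 and 58724 have its GRCh38 start and end, so GRCh38 was used. The kit is not stated to keep strand. Multiplied by gene length, 100% of values above 0 were whole reads within a tolerance of 0.01 reads, which gave 20429147, 15483569, 19778829 and 19108069 reads on genes in the order above. The library sizes used for the FPKM were 0.998, 1.09, 0.907 and 1.05 times these totals.

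Differences were taken on log2(FPKM + 1) with Python 3.11.15, numpy 2.4.6, pandas 2.3.3 and scipy 1.17.1, over the 14429 genes whose FPKM averaged at least 1, with a threshold of 1. The study's methods name edgeR with a log2 threshold of 2 and a p-value, which 1 library per condition does not allow within a line. A fit over both lines with the cell line as a block (limma 3.58.1 in R 4.3.3) was added after seeing the data. Ratios carry 95% exact (Clopper-Pearson) intervals from the reads, which cover counting error only, with a floor of 3 reads. No ratio was taken where both libraries had 3 reads or fewer. The scripts were tested on simulated data. All 38 chains entered the counts and sums, and 1 of them is not reported here by name. The others were described, those past the mean FPKM by their values and the others by range and counts, and up to 6 genes per partner list were named, those with the largest change in either line. The chains, lists and markers were chosen with earlier results of these data known. Alternatives were the pseudocount, the filter, the threshold, TPM, TMM-style and read-total scaling and centring, plus filters added after seeing the data. Upstream sequences came from RefSeq (GRCh38.p14). The RefSeq table used here had no window for 12 chains, among them LAMA1, ITGAD, ITGAX, ITGAL, LAMC3, ITGA9, ITGB4, ITGB2, ITGB3, ITGA3 and ITGA7.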

Additional observations from a re-analysis of the deposited data

Results flagged for a closer look

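Of the chains compared, 8 had a counting interval on opposite sides of 0 in the 2 lines when spheroids were set against adherent cells. With read-total scaling (FPKM recomputed from the totals of reads on genes) this held for 4 of the 8, since the interval then included 0 for LAMB3 and ITGB5 in HCT116 and for LAMB1 and LAMB2 in LOVO. On TPM it held for 6 of the 8 (not for LAMB1 and LAMB2), and with TMM-style scaling for 8. The share of all genes with intervals on opposite sides of 0 was not counted, so the 8 cannot be called particular to the chains. The intervals cover counting error only and lay off 0 for most of the 24 chains. In HCT116 17 lay above 0 and 5 below, and in LOVO 18 above and 6 below. With 1 library per condition the difference between the lines was not tested. The LOVO change minus the HCT116 change, on the log2 ratio scale, was 1.71 for ITGA3, 1.45 for LAMB3, 0.67 for ITGA6 and 0.37 for ITGB5, with the ratio above 0 in LOVO and below 0 in HCT116. It was -3.51 for LAMA1, -1.11 for LAMB2, -0.77 for LAMB1 and -0.53 for ITGB1, with the ratio below 0 in LOVO and above 0 in HCT116. The value of LAMA1 rests on 11 and 21 reads in adherent and spheroid HCT116 cells. ITGA3 and LAMB3 are chains of a laminin receptor and of a laminin, and both were past 1 on the log2(FPKM + 1) scale in LOVO only.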

How the results depend on the processing

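Within a line no replicate could be paired or left out, since each condition has 1 library; the fit with the cell line as a block called 0 of 24 chains. The 3 reads that a count of 0 allows limit what can be said of the low chains, above all in adherent LOVO cells. With a pseudocount of 0.01 in place of 1, the chains higher in spheroids numbered 5 in HCT116 and 13 in LOVO, where 6.49% and 15.7% of all genes were higher, and with a threshold of 2 they numbered 0 and 4. With a mean FPKM of at least 5, 1 chain was higher in HCT116 spheroids, against 1.66% of 8146 genes. In LOVO spheroids 0 chains were lower at that mean, against 10.2% of genes, and 0 at the threshold of 2, against 0.943%. Between adherent cells, 7 chains were higher in LOVO with pseudocounts of 0.1 and 0.01 and with TPM, against 21.9%, 22.3% and 21.6% of genes. At the threshold of 2 the count was 2, against 5.26%. Between spheroids, the threshold of 2 left 2 higher and 3 lower in LOVO, against 5.68% and 4.71% of genes. A mean FPKM of at least 5 left 3 lower, against 11.9%. At least 1 FPKM in every library was an alternative chosen after seeing the data. The counts were then 0 higher in HCT116 spheroids (1.16% of genes), and 5 higher and 0 lower in LOVO spheroids (5.55% and 8.17%). Between adherent cells 2 were higher and 4 lower in LOVO (14.9% and 9.66%), and between spheroids 3 were higher and 2 lower (13.9% and 9.05%).

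The median log2 difference of the chains in HCT116 spheroids was 0.465 and 0.557 with pseudocounts of 0.1 and 0.01, 0.113 without a filter, 0.195 with a mean FPKM of at least 5, 0.158 with at least 1 FPKM in every library and 0.419 with read-total scaling (FPKM recomputed from the totals of reads on genes). In LOVO it was 0.691 and 1.27 with those pseudocounts, 0.182 without a filter, 0.784 with TPM and 0.738 with read-total scaling. For the class sums, the log2 ratio with TMM-style scaling and read-total scaling in HCT116 was 0.015 and 0.166 for alpha chains, 0.297 and 0.447 for beta chains and 0.227 and 0.378 for laminins. With TPM, TMM-style scaling and read-total scaling in LOVO it was 1.88, 1.72 and 1.89 for alpha chains, 0.215, 0.050 and 0.226 for beta chains, and 0.417, 0.253 and 0.428 for laminins. None of these values changed direction. The sign of single chains changed in 3 of 144 values in HCT116 (LAMC1 with read-total scaling, ITGAE with read-total scaling and with centring) and in 0 of 144 in each of the other 3 comparisons. Scaling moved the median of all genes in LOVO spheroids from -0.06 to 0.10 with TPM and to 0.08 with read-total scaling, that between adherent cells from 0.07 to -0.03 with read-total scaling, and that between spheroids from 0.04 to 0.26 with TPM. Of all genes past 1 in LOVO, 52.2% were higher in spheroids, against 70.0% with TPM and 68.3% with read-total scaling, and in HCT116 39.7%, against 52.4% with read-total scaling.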
